A study of Mus musculus with 16 samples.

Results

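The measurement described here is the genotype by phenobarbital interaction of liver microRNAs (miRNAs): the phenobarbital difference in mice lacking beta-catenin in hepatocytes minus the phenobarbital difference in wild-type mice. All 611 mouse miRNA features of the 650 features on the array entered, over all 16 arrays, and the other 39 features, miRNAs of 2 mouse herpesviruses, set the background. The 4 groups of 4 arrays, all from livers of male C3H mice, were wild type (WT) on control treatment, WT given 0.05% phenobarbital in the diet for 12 weeks, and the same control and phenobarbital treatments in mice with a hepatocyte-specific Ctnnb1 knockout (CTNNB1KO). The knockout was made with Cre recombinase under the albumin promoter acting on loxP-flanked exons of Ctnnb1. Whether other liver cells kept the gene was not checked. The labels name the control agent as water and the treatment protocol as a diet without phenobarbital, and the term control is used for both. The ages of the mice were not given. The labels do not state that the 4 arrays of a group are 4 different mice, and the p-values therefore reflect differences among arrays that could be partly technical.

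Each miRNA is a short guide RNA that directs Argonaute proteins to mRNAs, mainly by pairing of its seed, bases 2 to 8, and lowers the output of those mRNAs. Phenobarbital activates the nuclear receptor CAR in hepatocytes and promotes liver tumours in mice, and beta-catenin is the Wnt pathway co-activator on which the gene expression of perivenous hepatocytes depends. The Dlk1-Dio3 region is an imprinted domain of mouse chromosome 12 whose many miRNAs come from long non-coding precursors of the maternal allele, abundant in embryo and placenta and low in adult liver.

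A feature was called dim where its group mean lay under 3.98 on the log2 scale, the 0.95 quantile of the viral features' means (median 3.23, highest 4.60). By this floor 109 mouse miRNAs were bright in all 4 groups, 10 in 2 or 3 groups, 22 in 1 group and 470 in none. The interaction test, limma's moderated test with Benjamini-Hochberg adjustment over the 611 features, called 7 miRNAs at 0.05, which is 1.15% of those tested. All 7 were Dlk1-Dio3 miRNAs with a smaller phenobarbital difference in CTNNB1KO. Of these, 6 were over the floor in WT with phenobarbital and dim in the other 3 groups, and 1, miR-411, was under the floor in all 4. None of the 109 miRNAs bright in all 4 groups passed.

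The mature sequences of the 7 called miRNAs are shown because the interaction calls consist of them. They are RefSeq entries of GRCm38.p6, 5′ to 3′, with the seed in capitals, and an asterisk in the array's name marks the opposite arm of a hairpin.
miR-376b: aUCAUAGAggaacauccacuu
miR-154*: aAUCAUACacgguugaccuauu
miR-127: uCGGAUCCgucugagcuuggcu
miR-379: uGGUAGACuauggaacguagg
miR-377: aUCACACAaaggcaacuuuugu
miR-411: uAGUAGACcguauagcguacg
miR-376a: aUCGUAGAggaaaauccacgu
No pair among the 7 shared a whole seed. The seeds of miR-376b and miR-376a were equal at 6 of 7 positions, as were those of miR-379 and miR-411. All lie on the plus strand of chromosome 12, at chr12:109592888-109592909 for miR-127, chr12:109709065-109709085 for miR-379 and chr12:109710190-109710210 for miR-411. Further along are miR-376b at chr12:109723508-109723528, miR-376a at chr12:109723824-109723844, miR-154* at chr12:109738474-109738495 and miR-377 at chr12:109740553-109740574. The 7 come from 7 different hairpins. In current nomenclature miR-154* is miR-154-3p, and miR-376b, miR-127, miR-377 and miR-376a are 3p arms, while miR-379 and miR-411 are 5p arms.

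The largest called interaction was that of miR-376b, one of a group of closely related miRNAs in the middle of the cluster. Its log2 values were 5.28, 5.70, 5.92 and 5.57 on the WT phenobarbital arrays (replicates 1 to 4). The WT controls read 3.38, 3.38, 3.57 and 3.58, the CTNNB1KO controls 3.64, 3.06, 3.13 and 3.19, and the CTNNB1KO phenobarbital arrays 3.47, 3.35, 3.10 and 3.65. All 4 WT phenobarbital arrays stood above all 12 others, and the other 3 groups overlapped. The phenobarbital difference was 2.14 in WT and 0.14 in CTNNB1KO, an interaction of -2.00 ± 0.21 (SE, n = 4 arrays a group; limma adjusted p = 9.84e-06). With every value under the floor set to the floor, which counts only what lies above background, the interaction was -1.63.

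miR-154*, the 3p arm of its hairpin, had log2 values of 4.43, 5.77, 5.68 and 5.48 with phenobarbital in WT. Its values were 3.43 to 3.76 in WT controls, 3.23 to 3.55 in CTNNB1KO controls and 3.24 to 3.30 in CTNNB1KO with phenobarbital. The WT phenobarbital arrays again did not overlap the others, with replicate 1 well under its 3 companions. The phenobarbital difference was 1.74 in WT and -0.10 in CTNNB1KO, and the interaction was -1.84 ± 0.28 (SE, n = 4; limma adjusted p = 0.00111), or -1.35 with dim values at the floor.

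miR-127 is transcribed antisense to Rtl1 and targets the Rtl1 transcript in mice. On the WT phenobarbital arrays it read 4.11, 4.87, 4.98 and 4.90, against 3.31 to 3.61 in WT controls, 3.09 to 3.52 in CTNNB1KO controls and 3.19 to 3.42 in CTNNB1KO with phenobarbital. Only the WT phenobarbital arrays were over the floor, with replicate 1 closest to it. The interaction was -1.20 ± 0.22 (SE, n = 4; limma adjusted p = 0.00681), from differences of 1.25 in WT and 0.05 in CTNNB1KO. With dim values at the floor it was -0.73 and no longer passed (limma adjusted p = 0.0849).

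miR-379, which gives the cluster its name, read 3.79, 4.47, 4.68 and 4.62 on the WT phenobarbital arrays and 3.27 to 3.56 on the 12 others. miR-377, near the far end of the region, read 3.86, 4.64, 4.55 and 4.58 against 3.11 to 3.56. For both, replicate 1 of the WT phenobarbital group lay under the floor and above every array of the other groups. The interactions were -1.05 ± 0.20 for miR-379 (limma adjusted p = 0.00837) and -0.95 ± 0.19 for miR-377 (limma adjusted p = 0.0101; SE, n = 4). Counted above the floor, both were -0.45 and neither passed (limma adjusted p = 0.115 for each).

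miR-411 and miR-376a were the weakest calls. On the WT phenobarbital arrays miR-411 read 3.64, 3.89, 4.07 and 4.11, a mean of 3.93 that is under the floor, and miR-376a read 3.81, 4.15, 4.18 and 3.94, a mean of 4.02 just over it. The 12 other arrays lay between 3.19 and 3.45 for miR-411 and between 3.15 and 3.46 for miR-376a. The groups did not overlap, but nearly all of the difference lay within the range of the viral features. The interactions were -0.61 ± 0.14 and -0.62 ± 0.14 (SE, n = 4; limma adjusted p = 0.0310 for each), and with dim values at the floor they shrank to -0.05 and -0.09. The miR-411 call was lost in 8 of the 16 fits that left out 1 array, and the miR-376a call in 9, while the other 5 calls held in all 16.

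For each of the 7, WT phenobarbital replicate 1 was the lowest array of its group. The mean over the 7 was 4.13 on that array and 4.74 to 4.86 on its 3 companions, against 3.23 to 3.53 on the 12 arrays of the other groups. Without replicate 1 the test called 13 miRNAs, all lower.

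**Figure D1:**
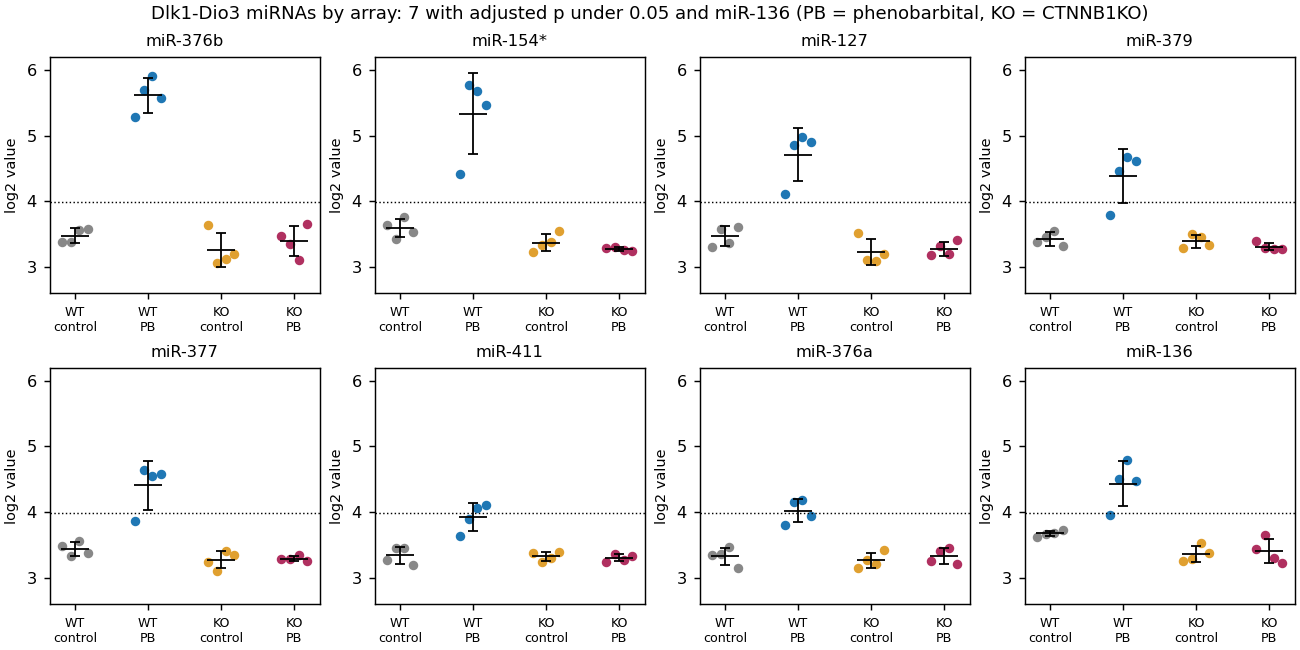
log2 value (y axis) of the 7 called miRNAs and miR-136 on each array (points, replicates 1 to 4 from left to right) in the 4 groups (x axis; PB, phenobarbital; KO, CTNNB1KO), with mean and SD as bars and the dim floor of 3.98 dotted. The 4 WT phenobarbital arrays stand above the other 12 in every panel, with replicate 1 the lowest of the 4 for the called miRNAs, and the miR-411 and miR-376a values lie close to the floor.

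In all 75 Dlk1-Dio3 miRNAs were measured, the 7 called among them, 52 in the list of the miR-379 to miR-410 cluster and 23 in the list of the proximal part with the Rtl1 antisense miRNAs. In the first list 6 passed and in the second 1, miR-127, all lower, while no member passed higher. The share of the 75 that passed was 9.33%, and 12 of the 75 were over the floor in at least 1 group. The median interaction was -0.11 in the miR-379 to miR-410 list, where 39 of 52 members were below 0, and -0.01 in the proximal list, where 12 of 23 were. Over all 611 features the median was -0.01 and 319 were below 0. Most members thus gave no reading over background in any group, and a mean over the 75 is mostly a mean of dim values.

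Next after the called miRNAs came other members of the region. miR-337-5p, of the proximal part, had an interaction of -0.50 ± 0.12 (SE, n = 4; limma adjusted p = 0.0565) and a WT phenobarbital mean of 3.83, under the floor. miR-300 had an interaction of -0.70 ± 0.18 (limma adjusted p = 0.0587), with a WT phenobarbital mean of 4.01 that is barely over it. miR-136, which like miR-127 lies antisense to Rtl1, had -0.71 ± 0.19 (limma adjusted p = 0.0966), and miR-299* had -0.75 ± 0.22 (limma adjusted p = 0.127). The largest positive value among these dim members was that of miR-668, 0.33 ± 0.09 (limma adjusted p = 0.110), whose 4 group means lay between 3.06 and 3.28.

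At an unadjusted p under 0.05, 51 features (8.35%) differed, 37 lower and 14 higher. Of these, 25 were Dlk1-Dio3 miRNAs, 24 lower and 1 higher, which is 33.3% of the 75. Outside the region 26 of 536 features, or 4.85%, had such a p, and none passed after adjustment. The unadjusted counts are descriptions, with no control of false calls.

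All 4 WT phenobarbital arrays stood above all 12 others for 14 of the 611 features (2.29%). Of the 14, 13 were Dlk1-Dio3 miRNAs, 17.3% of the 75, namely the 7 called and miR-136, miR-337-3p, miR-337-5p, miR-411*, miR-434-3p and miR-541. The other 1 was miR-22*, an opposite arm bright in all groups, with mean log2 values of 5.89 and 6.21 in WT control and phenobarbital and 5.45 and 5.74 in CTNNB1KO. Its phenobarbital differences of 0.32 and 0.29 were nearly equal, and its interaction was -0.03 ± 0.29 (SE, n = 4). The same separation upwards was found for 3 features in WT controls, the bright miRNAs miR-19a, miR-19b and miR-20a, for none in CTNNB1KO controls, and for 1 dim feature, miR-703, in CTNNB1KO with phenobarbital.

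The opposite arms of the called hairpins behaved unevenly. On the array, 5 of the 7 called miRNAs had their opposite arm measured as well. The interaction was 0.08 for miR-127*, -0.34 for miR-411*, -0.35 for miR-376b*, -0.04 for miR-376a* and -0.51 for miR-154, and none of these passed. miR-154 was the only one of the 5 with a mean over the floor, 4.22 in WT with phenobarbital. A dim arm gives no reading of its own change, so these values do not show that the arms differed.

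By position, 72 of the 75 members could be placed at 49 hairpins over 180.02 kb, counted from the hairpin of miR-770. Those called lay between 29.15 kb and 176.82 kb. They were interspersed with hairpins whose arms were dim in every group, so the calls did not form an unbroken block.

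**Figure D2:**
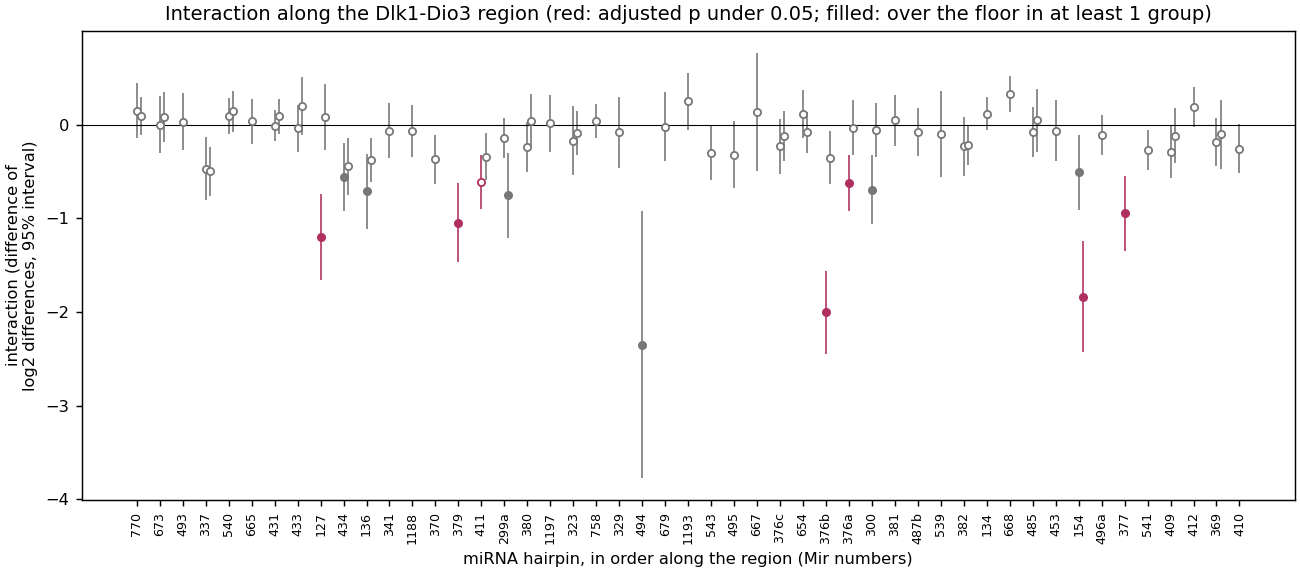
Interaction on the log2 scale with its 95% interval (y axis) for 72 Dlk1-Dio3 miRNAs, at their hairpins in order along the region (x axis), with called miRNAs in red and miRNAs over the floor in at least 1 group filled. The 7 red points lie at 7 hairpins spread along the region, from -0.61 for miR-411 to -2.00 for miR-376b, and the widest interval is that of the bright miR-494.

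The class of a feature and its interaction use the same arrays, so a miRNA over the floor in WT with phenobarbital alone leans to a negative interaction by its definition, and the following counts are descriptions. Of the 22 miRNAs over the floor in 1 group, 13 were so in WT with phenobarbital, 11 of them from Dlk1-Dio3 and the others miR-467f and miR-671-5p. Among the 13, 6 passed and 12 had an unadjusted p under 0.05. The 5 over the floor in CTNNB1KO with phenobarbital alone were miR-1, miR-133a, miR-133b, miR-342-3p and miR-705. The 3 of CTNNB1KO controls were miR-188-5p, miR-301a and miR-33, the 1 of WT controls was miR-29c*, and none of these 9 passed. Just inside the floor in WT with phenobarbital were miR-467f at 3.99, miR-434-3p at 4.0 and miR-300 at 4.01, and just outside were miR-139-3p at 3.94 and miR-411 at 3.93.

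Among the largest positive interactions were those of striated muscle miRNAs, which act in heart and skeletal muscle development. miR-133b had log2 values of 7.74, 5.69, 3.25 and 3.51 on the CTNNB1KO phenobarbital arrays and 3.09 to 3.56 on the 12 others. The companion miR-1 read 8.17, 6.03, 3.68 and 3.09 on those arrays, and miR-133a read 6.46, 4.98, 3.59 and 3.08. Replicates 1 and 2 alone carried the signal. The interactions were 1.73 ± 0.87 for miR-133b, 1.69 ± 0.96 for miR-1 and 1.27 ± 0.63 for miR-133a (SE, n = 4; limma adjusted p = 0.608, 0.675 and 0.608), and without these 2 arrays they were 0.06, -0.16 and 0.08. Of the 8 muscle markers measured, 3 were over the floor in any group and none in all. The list's mean was 5.0 and 4.25 on the 2 arrays and at most 3.41 on each of the other 14. Without the 2 arrays, 4 of the 7 interaction calls held, those of miR-376b, miR-154*, miR-379 and miR-127. The bright leukocyte miRNA miR-142-5p then passed as higher (1.29 ± 0.29, limma adjusted p = 0.0463). On the CTNNB1KO phenobarbital arrays miR-142-5p read 4.6, 4.7, 5.9 and 6.0, so the 2 arrays left out held its lowest values in that group. With all 16 arrays its interaction was 0.66 (limma adjusted p = 0.740).

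**Figure D3:**
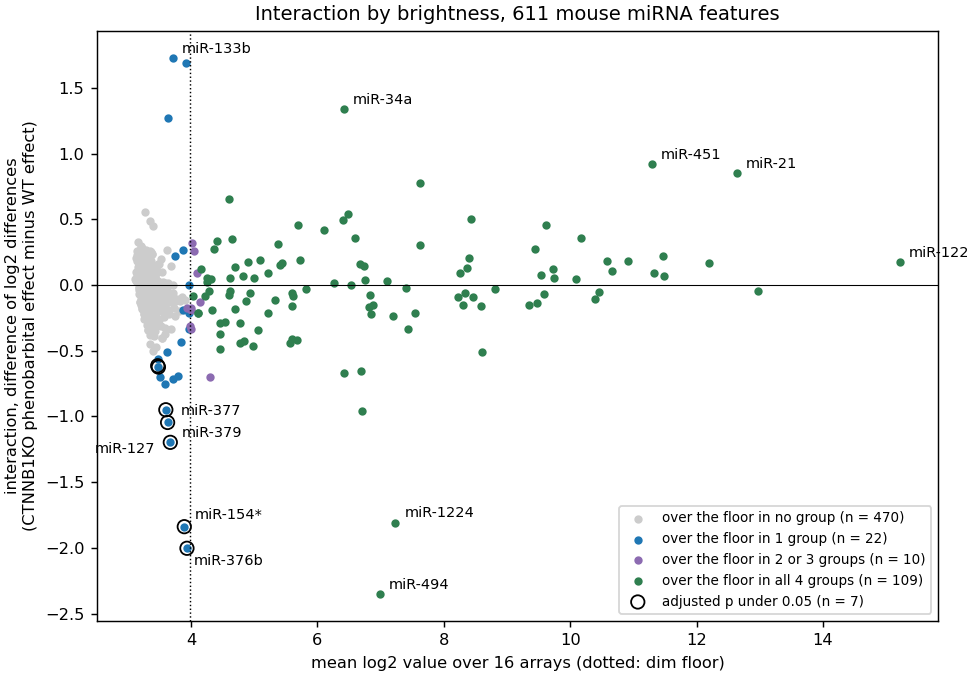
Interaction on the log2 scale (y axis) against the mean log2 value over the 16 arrays (x axis, dim floor dotted) for 611 mouse miRNAs, coloured by the number of groups in which the mean lay over the floor and ringed where the adjusted p was under 0.05. The 7 ringed points lie left of the floor and below 0, and no bright miRNA is ringed, although miR-494 at -2.35 lies lower than any ringed point.

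The 109 miRNAs bright in all 4 groups had a median interaction of -0.02, with 56 below 0. Unadjusted p-values under 0.05 were found for 12 of them, 11% against 8.35% over all features, 6 lower and 6 higher. The smallest adjusted p was 0.127. The bright miRNAs varied more between arrays than the dim ones: the median distance from the estimate to either limit of its 95% interval was 0.46 for bright miRNAs and 0.30 over all features, both on the log2 scale. The interval lay wholly within 1 log2 unit of 0 for 87 of the 109, and within 0.5 for 19. Differences of moderate size between the genotypes were thus not detectable for most of them, and a missed threshold does not show that their phenobarbital differences were equal. At the edge of the class, miR-200a had its lowest group mean at 3.99 and miR-500 at 4.03, while miR-378* and miR-455 missed it with lowest means of 3.97 and 3.96.

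Sequences of the bright miRNAs that the following paragraphs turn on are RefSeq entries of GRCm38.p6, with the seed in capitals.
miR-494: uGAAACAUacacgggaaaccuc
miR-1224: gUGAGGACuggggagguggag
miR-34a: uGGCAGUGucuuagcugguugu
miR-802: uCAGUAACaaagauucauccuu
miR-21: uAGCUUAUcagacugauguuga
miR-29b: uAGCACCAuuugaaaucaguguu
miR-16: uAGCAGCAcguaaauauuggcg
miR-451: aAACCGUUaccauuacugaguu
No pair of these shared a whole seed, although those of miR-29b and miR-16 were equal at 6 of 7 positions. miR-494 lies within the Dlk1-Dio3 region, at chr12:109715367-109715388 on the plus strand, and was its only member bright in all groups.

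miR-494 had the interaction farthest from 0 of all 611 features, but not the pattern of the called members. Its log2 values were 6.18, 6.68, 7.22 and 6.58 in WT controls and 7.41, 8.12, 6.80 and 7.33 in WT with phenobarbital. In CTNNB1KO the controls read 7.16, 7.03, 9.68 and 7.05 and the phenobarbital arrays 5.11, 6.34, 6.76 and 6.31. The WT groups overlapped, and in CTNNB1KO every phenobarbital array lay under every control, with control replicate 3 far above the rest. The phenobarbital difference was 0.75 in WT and -1.60 in CTNNB1KO. The interaction was -2.35 ± 0.68 (SE, n = 4; 95% interval -3.78 to -0.92; limma adjusted p = 0.127), and it was -1.70 without CTNNB1KO control replicate 3.

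miR-1224, a mirtron, that is a miRNA excised by splicing, gave a similar picture on the same arrays. Its CTNNB1KO controls read 6.90, 8.59, 9.14 and 7.36 and its CTNNB1KO phenobarbital arrays 5.98, 6.93, 7.22 and 7.34. In WT the controls lay between 6.44 and 7.11 and the phenobarbital arrays between 6.84 and 8.02. Both pairs of groups overlapped, and control replicates 2 and 3 of CTNNB1KO were the highest of the 16. The interaction was -1.81 ± 0.57 (SE, n = 4; 95% interval -2.99 to -0.62; limma adjusted p = 0.177), and -0.94 with both of those arrays left out.

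Under phenobarbital, miR-30d and miR-689 were low on all 4 CTNNB1KO arrays, below all 12 others. miR-30d, of the miR-30 family, read 6.52, 6.51, 6.25 and 5.92 there and 6.60 to 7.10 elsewhere, and miR-689 read 5.55, 6.30, 5.63 and 6.28 against 6.46 to 7.59. The interaction was -0.66 ± 0.22 for miR-30d (SE, n = 4; limma adjusted p = 0.237) and -0.96 ± 0.35 for miR-689 (limma adjusted p = 0.301). For miR-30d the lowest array was CTNNB1KO phenobarbital replicate 4, which had 100 miRNAs over the floor where the next lowest array had 114, and without it the interaction was -0.53. In the miR-30 family list 9 of 10 members were below 0, with a median of -0.22 against -0.01 over all features, and none passed. The family's mean on that array was 5.35, and 5.65 to 6.00 on the other 15, and the part of the array in the family's values was not tested.

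miR-34a is a direct target of p53 in mice. It read 4.73 to 5.11 in WT controls and 4.89 to 5.08 in WT with phenobarbital. The CTNNB1KO controls read 6.65, 9.41, 6.35 and 6.42 and the CTNNB1KO phenobarbital arrays 7.96, 8.06, 9.49 and 8.75. Every CTNNB1KO array lay above every WT array, and control replicate 2 lay among the phenobarbital values while its 3 companions lay below them. The phenobarbital difference was 0.02 in WT and 1.36 in CTNNB1KO, an interaction of 1.34 ± 0.68 (SE, n = 4; 95% interval -0.10 to 2.77; limma adjusted p = 0.608). Without control replicate 2 the interaction was 2.07 and passed (limma adjusted p = 0.00362), so 1 array decided this call.

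The same array also decided the result for miR-802, a liver-enriched miRNA that affects insulin signalling in mice. miR-802 read 5.79, 5.18, 5.60 and 5.73 in WT controls and 6.95, 7.09, 6.69 and 7.10 in WT with phenobarbital, with no overlap. The CTNNB1KO controls read 6.66, 5.38, 6.41 and 6.48, of which replicate 2 alone lay within the WT control range, and the CTNNB1KO phenobarbital arrays read 6.92, 7.26, 6.73 and 6.87. The phenobarbital difference was 1.38 in WT and 0.72 in CTNNB1KO, an interaction of -0.67 ± 0.32 (SE, n = 4; 95% interval -1.35 to 0.01; limma adjusted p = 0.608). It was -0.95 without CTNNB1KO control replicate 2, and then passed (limma adjusted p = 0.0479).

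For miR-21, an abundant miRNA that represses Pdcd4, the WT controls read 12.93, 13.24, 13.10 and 12.35 and the WT phenobarbital arrays 11.84, 12.02, 12.26 and 12.23. In CTNNB1KO the controls read 12.47, 13.80, 12.18 and 12.58 and the phenobarbital arrays 12.30, 12.59, 13.45 and 12.82. The groups separated in WT and overlapped in CTNNB1KO, where control replicate 2 was the highest of all arrays. The phenobarbital difference was -0.82 in WT and 0.03 in CTNNB1KO, and the interaction 0.85 ± 0.40 did not pass (SE, n = 4; limma adjusted p = 0.565). Without that array it was 1.20 (limma adjusted p = 0.0565).

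miR-29b, which targets collagen mRNAs, and miR-16, which targets cell cycle mRNAs, had small interactions of opposite phenobarbital differences. miR-29b differed by -0.19 in WT and 0.26 in CTNNB1KO, an interaction of 0.46 ± 0.16 (SE, n = 4; limma adjusted p = 0.244). miR-16 differed by -0.09 and 0.42, an interaction of 0.51 ± 0.20 (limma adjusted p = 0.346). The 4 CTNNB1KO controls of miR-16, at 8.32, 7.66, 8.21 and 8.11, lay below all 12 other arrays, which lay between 8.42 and 8.77. Replicate 2 was again the outermost, and without it the interaction was 0.37.

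miR-451, an erythroid miRNA processed by Argonaute 2 without Dicer, read 11.46 to 12.94 in WT controls and 11.48 to 12.10 in WT with phenobarbital. Its CTNNB1KO controls lay between 10.12 and 10.70 and the phenobarbital arrays between 10.24 and 11.37. Every CTNNB1KO array was below every WT array, while the treatments overlapped within each genotype. The interaction was 0.92 ± 0.37 (SE, n = 4; limma adjusted p = 0.374). All 3 erythroid markers were above 0, with a median interaction of 0.50 against -0.01 over all features, and 2 of them were bright in all groups. Their mean level ranged from 7.54 to 8.46 in WT controls, 7.46 to 7.98 in WT with phenobarbital, 6.28 to 6.79 in CTNNB1KO controls and 6.30 to 7.46 in CTNNB1KO with phenobarbital. In the last group it was 7.46 and 7.05 on replicates 1 and 2, the arrays with the muscle signal. On replicates 3 and 4 it was 6.30 and 6.46, within the range of the CTNNB1KO controls. The shared direction of the erythroid markers thus rested largely on replicates 1 and 2. In these bulk samples fewer cells of a type and less RNA per cell cannot be told apart.

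**Figure D4:**
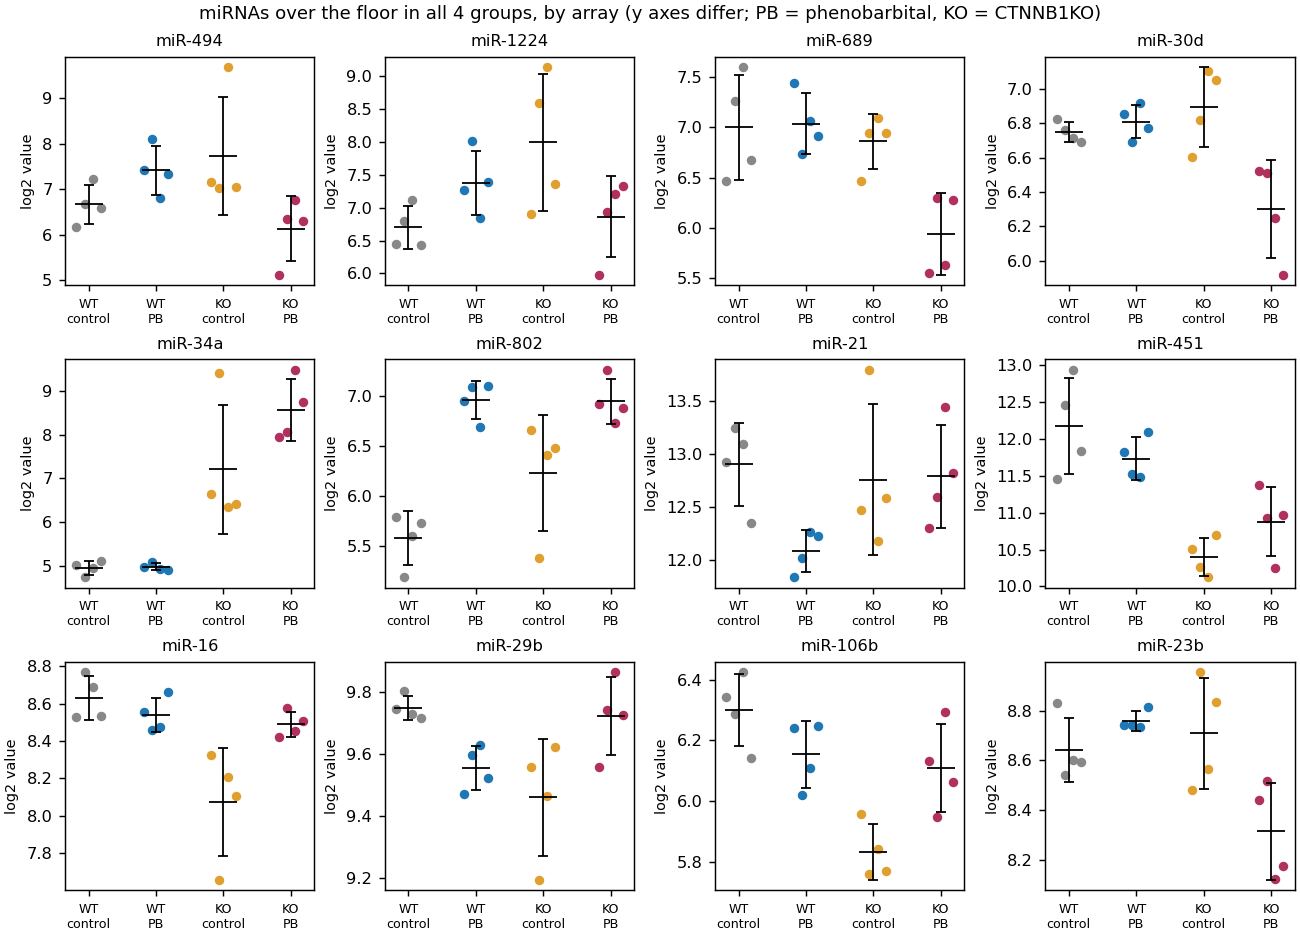
log2 value (y axis, ranges differ between panels) of 12 miRNAs bright in all 4 groups, on each array (points, replicates 1 to 4 from left to right) with mean and SD as bars (PB, phenobarbital; KO, CTNNB1KO). None of the 12 passed the interaction test; single CTNNB1KO control arrays stand apart for miR-494 (9.68), miR-34a (9.41) and miR-802 (5.38).

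miR-23b had an interaction of -0.51, miR-106b of 0.42, miR-30e* of -0.48, miR-378 of -0.42 and miR-350 of 0.35, and none of them passed. The remaining bright miRNAs named by the rule lay between -0.44 for let-7e and 0.78 for miR-142-3p, and none of those passed. miR-122, the hepatocyte miRNA and brightest feature, read 15.28 on all 4 WT controls and on CTNNB1KO phenobarbital replicate 3. The identical values leave no spread in the WT control group, which narrows the SE pooled over the groups. Its interaction was 0.18 ± 0.07 (limma adjusted p = 0.340). Without CTNNB1KO phenobarbital replicate 4 it was 0.23 (limma adjusted p = 0.0262).

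Across the 109 bright miRNAs the phenobarbital differences in the 2 genotypes, which share no arrays, showed no clear relation. The sign was the same for 57 and opposite for 52. Across these miRNAs, which are not independent replicates, Pearson's r was -0.09 and Spearman's rho 0.01, and r was 0.18 without miR-494 and miR-1224. The SD of the differences was 0.24 in WT and 0.34 in CTNNB1KO, and the size was larger in CTNNB1KO for 71 of the 109. Spread among the arrays of a group also enlarges such differences and weakens their correlation across miRNAs, and its part in these values was not tested. More than 0.5 log2 units of phenobarbital difference was found for 5 bright miRNAs in WT and 9 in CTNNB1KO. The median size was 0.10 in WT and 0.16 in CTNNB1KO. The median distance from a bright miRNA's interaction to the limits of its interval was 0.46. That interval is for the contrast of both differences and is wider than the interval of either difference alone.

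**Figure D5:**
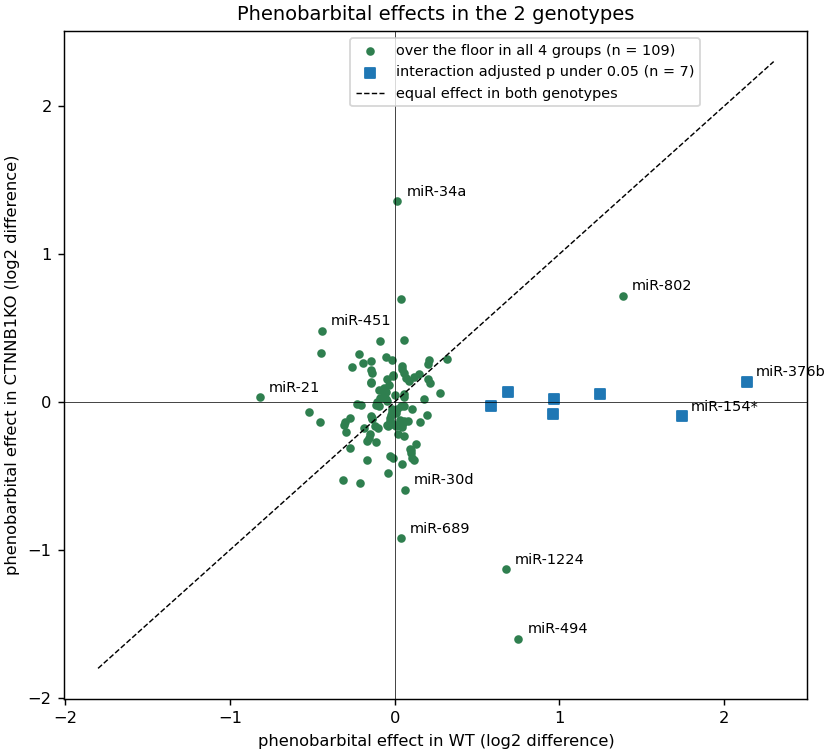
Phenobarbital difference on the log2 scale in CTNNB1KO (y axis) against that in WT (x axis) for 109 miRNAs bright in all 4 groups (circles) and the 7 called miRNAs (squares), with equal differences on the dashed line. The called miRNAs lie along the x axis between 0.59 and 2.14, with values near 0 in CTNNB1KO, and most circles cluster around 0 on both axes.

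None of the 221 members of the 17 other lists, some counted in more than 1 list, passed the interaction test, and the lists' medians lay between -0.22 for the miR-30 family and 0.50 for the erythroid markers. In the list of miR-17, miR-92 and their paralogs, a set of proliferation-linked clusters, 4 of 21 members were below 0, with a median of 0.09. Medians were 0.13 in the miR-29 family, 0.08 in the miR-15/16 family, 0.07 in the let-7 family, 0.18 in the miR-34 family, -0.08 in the miR-99/100 and miR-125 families and -0.04 in the hepatocyte-abundant list. The Sfmbt2 cluster, a large imprinted miRNA cluster of which 1 of 39 members was over the floor in any group, had a median of -0.11. Among cell type markers the medians were 0.03 for leukocytes, 0.08 for striated muscle, 0.05 for stellate or mesenchymal cells, 0.09 for endothelium, 0.05 for biliary or epithelial cells, -0.07 for exocrine pancreas and 0.00 for neural tissue. The leukocyte list was bright for 4 of its 16 members, whose median interaction was 0.60, and its mean level ranged from 3.90 to 4.01 in WT controls, 3.79 to 3.96 in WT with phenobarbital, 3.95 to 4.41 in CTNNB1KO controls and 4.03 to 4.48 in CTNNB1KO with phenobarbital. The part of these cell types in the interactions was not tested.

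Among the 39 viral features, fitted together with the mouse miRNAs, none passed the interaction test in limma, 2 had an unadjusted p under 0.05, and the smallest adjusted p was 0.235. Arrays of one group correlated between 0.966 and 0.996 across miRNAs. The loss of Ctnnb1 could not be checked on an array of miRNAs.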

How the data were processed

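Liver RNA was hybridised to single-channel miRNA arrays after labelling of 100 ng total RNA with an Agilent kit, per the labels' protocols. The deposited table holds 1 log2 value per feature and array. Per the submitters' processing notes, the authors used RMA and limma, with versions and settings not given in the sources used here. RMA usually includes a normalization between arrays, which would remove a shift common to most miRNAs. Raw scanner signals were not used here. The number of arrays limits the precision.

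Groups came from the sample titles. With limma 3.58.1 in R 4.3.3, 1 mean per group was fitted to all 611 mouse features on 16 arrays (12 residual degrees of freedom), followed by eBayes with an intensity trend and two-sided tests. The spread of each miRNA was pooled over the 4 groups. The procedure was tested on simulated data, with shifts added to randomly chosen features on the CTNNB1KO phenobarbital arrays and independent noise. The called miRNAs differ from that setting, being dim and higher in WT with phenobarbital, so no conclusion on those calls is drawn from it. No column was left out.

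Named miRNAs were all that passed, the 8 smallest p-values per direction among those bright in all 4 groups, the 3 smallest per direction among those bright in 2 or 3, the 2 smallest in each of 19 lists among members over the floor in at least 1 group, and 18 of prior interest. Opposite arms, miRNAs near a threshold and others outside this rule were named after their values were seen. Members and lists were chosen with earlier results of these data known. Sequences were looked up in RefSeq for 24 miRNAs and 21 matched, all but miR-30d, miR-23b and miR-689. Alternatives covered the moderation, array weights, centring, the floor, the scale, a replicate block and single arrays left out. Replicate numbers, shared by the groups' titles, did not pair the arrays (median correlation of deviations 0.00 over 24 same-number pairs, from -0.45 to 0.40).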

Additional observations from a re-analysis of the deposited data

Results flagged for a closer look

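The phenobarbital difference itself differed between the genotypes, by the interaction term of the limma fit, for the 7 called miRNAs. The differences were -2.00 for miR-376b, -1.84 for miR-154*, -1.20 for miR-127, -1.05 for miR-379, -0.95 for miR-377, -0.62 for miR-376a and -0.61 for miR-411 on the log2 scale.

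Single arrays far from the other 3 of their group were found for 12 of 212 groups examined, the 4 groups of 53 named miRNAs. Chance alone would mark about 1 in 20 independent groups, and this number is close to that. The named miRNAs share arrays and were partly chosen by p-value, so the comparison is only rough. Each is therefore given as a value. In WT with phenobarbital, replicate 1 was low for miR-127 (4.11, others 4.87 to 4.98) and miR-377 (3.86, others 4.55 to 4.64), and high for miR-133b (3.53, under the floor). In the same group replicate 4 was high for miR-23b (8.82, others 8.73 to 8.74) and replicate 3 for miR-126-5p (4.90, others 4.67 to 4.69). Among CTNNB1KO controls, replicate 3 was high for miR-494 (9.68), replicate 2 was high for miR-34a (9.41) and low for miR-212 (3.52, others 4.03 to 4.13), and replicate 4 was high for miR-31* (5.35, others 5.01 to 5.05). CTNNB1KO phenobarbital replicate 3 was low for miR-378 (5.16, others 5.75 to 5.83). Among WT controls, replicate 2 was high for miR-15a (9.67, others 9.46 to 9.48) and replicate 4 low for miR-455 (3.68, others 4.49 to 4.55).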

How the results depend on the processing

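The interaction called 7 miRNAs, 0 higher, 7 lower and 0 among the bright. Leaving out 1 array at a time gave 5 to 13 calls, 0 to 1 higher, 5 to 13 lower and 0 to 2 bright. Those bright were miR-34a and miR-802 without CTNNB1KO control replicate 2 and miR-122 without CTNNB1KO phenobarbital replicate 4, and the 13 came without WT phenobarbital replicate 1. Array weights gave 20 calls, 4 higher, 16 lower and 1 bright (miR-122). Without moderation 2 were called, both lower (miR-376b and miR-154*), as with dim values at the floor, which tests 168 miRNAs. On the linear scale, also fitted without moderation, 1 was called, lower (miR-376b). Among bright miRNAs alone 0 were called, 0 of them lower (for miR-494, limma adjusted p = 0.166). The 7 called miRNAs are dim, so by construction they could not be called in that fit, while a bright miRNA could have been. Leaving out CTNNB1KO phenobarbital replicates 1 and 2 gave 5 calls, with 4 lower, 1 higher and 1 bright (miR-142-5p). Leaving out CTNNB1KO control replicates 2 and 3, chosen after seeing the data, gave 6 calls, 1 of them higher and bright (miR-34a). Where no construction is named, the cause was not tested. A replicate block gave 7 calls, the same 7, and 2 of 16 arrays correlated best with their own number. Fits without a trend gave 8 calls, with robust moderation 9 and with median-centred arrays 6. A floor at the highest viral mean, 4.60, does not enter the test, but it left 84 miRNAs bright in all 4 groups and 3 of the 7 called miRNAs, in place of 6, over the floor in 1 group. Over 53 named miRNAs, 1417 of 1465 recomputed values kept direction and side of the threshold or passed in neither fit, 40 lost and 8 gained a call, and none that was called reversed. The 1417 include 24 values, of 9 miRNAs, that changed sign and passed in neither fit. Dimness limits the called miRNAs, and spread among 4 arrays the bright ones.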
